A study of Mus musculus with 139 samples.

Results

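Small RNA libraries of lung were compared with small RNA libraries of spleen from the same mice, within a survey of small non-coding RNA in 11 tissues. The members were the columns of the deposited count table whose names begin with Lung or Spleen, 27 of the 134 libraries in the table: 13 of lung and 14 of spleen. They were matched by replicate number, which is the animal, and this left 13 pairs; Spleen 10 has no lung partner and entered only the fits without pairing. All animals were wild-type C57BL/6J, an inbred laboratory strain, 3 months old and untreated, so the 2 groups differ by organ and share strain, age and genotype. Whole tissue was used. Animals 1 to 10 are female by the column names and their lung and spleen libraries are in library pool N467; animals 11 to 14 are male and are in pool N541. Sex, animal set and pool are therefore 1 split and cannot be told apart.

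Lung is lined by ciliated, secretory and alveolar epithelium over dense capillaries, with smooth muscle and fibroblasts in its walls. Spleen is a lymphoid organ of B cells, T cells and macrophages in a filtering stroma, and in the mouse it also makes blood cells. MicroRNAs (miRNAs) are short RNAs cut from a hairpin; they pair with messenger RNAs mainly through the seed, bases 2 to 8 of the mature strand, so genes with a common seed share most predicted targets. Small nucleolar RNAs (snoRNAs) guide chemical modification of ribosomal RNA, and tRNA and mitochondrial tRNA reads in such libraries are mostly fragments. In whole tissue, fewer cells of a type and less RNA per cell cannot be told apart.

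The sequences on which the comparison turns are given 5′ to 3′ from RefSeq (GRCm38.p6), with the seed in capitals. The counts are per hairpin gene and do not separate the arms of the hairpin; the arm shown is the one the family is named for. The first set was far higher in lung, and its first 3 members share 1 seed, as do the next 3.
miR-34b-5p: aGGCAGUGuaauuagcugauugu
miR-449a-5p: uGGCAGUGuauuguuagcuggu
miR-449c-5p: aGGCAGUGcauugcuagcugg
miR-200b-3p: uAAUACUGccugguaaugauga
miR-200c-3p: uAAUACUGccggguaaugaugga
miR-429-3p: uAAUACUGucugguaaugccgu
miR-1298-5p: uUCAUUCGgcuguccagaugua
miR-31-5p: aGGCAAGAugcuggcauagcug
The second set was higher in spleen; miR-20b and miR-20a share a seed, as do miR-204 and miR-211.
miR-20b-5p: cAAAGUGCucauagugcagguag
miR-20a-5p: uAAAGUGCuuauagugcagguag
miR-204-5p: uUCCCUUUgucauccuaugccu
miR-211-5p: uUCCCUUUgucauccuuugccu
miR-155-5p: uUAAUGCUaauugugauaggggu
miR-342-3p: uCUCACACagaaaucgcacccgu
miR-142a-3p: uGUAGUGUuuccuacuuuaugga
The third set shows genes with 1 seed and opposite direction: miR-92b (lung) against miR-92a, miR-25 and miR-363 (spleen), miR-195a (lung) against miR-15b (spleen), and miR-130a (lung) against miR-130b (spleen).
miR-92b-3p: uAUUGCACucgucccggccucc
miR-92a-3p: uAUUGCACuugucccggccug
miR-25-3p: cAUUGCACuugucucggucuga
miR-363-3p: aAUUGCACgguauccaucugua
miR-195a-5p: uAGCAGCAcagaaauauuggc
miR-15b-5p: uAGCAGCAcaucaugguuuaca
miR-130a-3p: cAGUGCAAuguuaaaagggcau
miR-130b-3p: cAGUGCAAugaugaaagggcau

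Total counts ran from 4809491 to 33186859 in lung (median 12445057) and from 2113995 to 15891614 in spleen (median 10496604). No 2 of the 27 columns were identical, and each of the 27 libraries was most like a library of its own tissue by Spearman correlation across genes. Levels are given as CPM (counts scaled to a library of 1000000) after TMM scaling, which corrects for the make-up of each library; they are relative, so a higher share of 1 class lowers the others. Besides the pools, the labels carry a library index number, and within N467 the libraries fell into 2 sets by it: Lung 1 to 4 and Spleen 1 to 5 carry indexes 6 to 24, Lung 5 to 9 and Spleen 6 to 10 carry indexes 30 to 48. Levels of some miRNAs differed between these sets, with 1 example from each tissue given here. Levels were not tested between the sets gene by gene. In spleen, Mir342 ran from 6115 to 7860 CPM in the first set and from 1668 to 2504 CPM in the second, among the paired libraries. The share of Mir301 among Mir130a, Mir130b and Mir301 ran from 59.7 to 64.0% in lung in the first set and from 31.0 to 34.7% in the second. Animal 5 has its lung in the second set and its spleen in the first, so its pair is not matched for the set. The difference between lung and spleen itself was tested for dependence on the set within N467. Here edgeR called 0 of 853 genes (0%), 99 had an unadjusted p below 0.05 and DESeq2 called 3. On simulated counts of all 26 paired libraries, edgeR's test of dependence on the pool recovered 45.9% of log2 differences of 2 and 30% of 1.5. The test between index sets used 19 libraries and was not simulated, so few calls do not show that the sets are alike. These index sets were noticed after the data were seen.

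Of 813 genes tested, 169 (20.8%) were called higher in lung and 232 (28.5%) higher in spleen, by edgeR's quasi-likelihood test with animal as a block, a Benjamini-Hochberg adjusted p below 0.05 and a log2 fold change of at least 1. Together they were 49.3% of the genes tested, and the remaining 412 were not called. The split moved with the scaling: 53.1% of calls were higher in lung with DESeq2 size factors and 18.5% on unscaled library totals, against 42.1% here, and these scalings shifted the median gene by 0.21 and -0.69 on the log2 scale. Without animal 3 or without animal 5, 151 and 152 genes were called higher in spleen. The median gene had a log2 fold change of -0.37, against which the lists below are to be read. Among 345 miRNA genes, 130 (37.7%) were called higher in lung and 88 (25.5%) higher in spleen. With miRNA genes scaled and tested alone these were 100 and 101 of 344, so the excess towards lung moved with the scaling. All lung libraries lay above all spleen libraries for 54 genes (6.64%), and the reverse held for 61 genes (7.5%). Of the 169 genes called higher in lung, 159 had that direction in each of the 3 sets of libraries (both index sets of N467 and N541) fitted alone, and 88 were called in all 3. Of the 232 called higher in spleen, these numbers were 196 and 96. The 3 sets are parts of the libraries that gave the calls, so agreement in direction is not independent support.

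The miRNAs of multiciliated cells were far higher in lung, without overlap. Mir34b, Mir34c, Mir449a and Mir449c, which act in the formation of motile cilia, were all called higher in lung, 4 of 4 tested, with a median log2 fold change of 7.17. Mir34c ran from 2905 to 6819 CPM in lung (median 4429) and from 6.98 to 40.9 CPM in spleen (median 16.6). Its log2 fold change was 8.09 ± 0.30 (SE), adjusted p = 2.19e-13 by edgeR's test with Benjamini-Hochberg adjustment, higher in lung in 13 of 13 pairs. Mir34b ran from 194 to 1009 CPM in lung and from 0.667 to 6.37 CPM in spleen. Mir449a (105 to 359 against 0.828 to 6.26 CPM) and Mir449c (113 to 519 against 0.766 to 11.6 CPM) were lower in level and equally distinct. The tissues did not overlap for any of these 4 genes. Mir34b and Mir34c are neighbours on chromosome 9 (51103562-51103645 and 51103034-51103110, minus strand, GRCm38), and Mir449a and Mir449c lie in an intron of Cdc20b, a gene of multiciliated cells, on chromosome 13. Summed over the 5 listed genes the raw CPM was 2376 to 6680 in lung and 18.3 to 52.0 in spleen. Mir34c made up 82.7 ± 2.70% (SD, n = 13) of the counts on these 4 genes in lung. Within N541, the pool that holds all 11 tissues, the median raw CPM of each of these 4 genes was highest in lung, at 2504 for Mir34c. Over all pools the median of Mir34c was 3017 raw CPM in lung and 782 in brain, the next. The rank against testis is uncertain. The libraries labelled testis had the highest medians over all pools of Mir205 (6189 raw CPM) and Mir203 (4972 raw CPM), and testis titles are repeated among the samples. Whether that label is right was not tested.

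Epithelial miRNAs were the next group, with 10 of 10 called higher in lung and a median log2 fold change of 4.31. The Mir200 family, which holds epithelial identity by repressing Zeb transcription factors, gave the largest values. Mir429 ran from 260 to 764 CPM in lung (median 333) and from 1.56 to 10.6 CPM in spleen (median 5.02). Mir200b ran from 513 to 3606 CPM in lung (median 1187) and from 11.7 to 67.3 CPM in spleen (median 27.6). Every lung library was above every spleen library for both. Mir141, in the other Mir200 cluster, was the most abundant member, at 8499 ± 3738 CPM (SD, n = 13) in lung and 1021 ± 1061 CPM in spleen. Mir182, Mir183 and Mir96, a cluster known from sensory and other epithelia, had log2 fold changes of 4.24 ± 0.21, 3.83 ± 0.27 and 3.96 ± 0.21 (SE). Mir205, a marker of basal cells of stratified epithelium, ran from 4.86 to 24.9 CPM in lung and did not exceed 0.998 CPM in spleen. Mir203 was the exception in size, at 1.58 ± 0.19, and the only 1 of the 10 whose tissues overlapped (177 to 572 against 63.5 to 265 CPM); on unscaled totals it was not called (0.89). The difference was larger in N467 than in N541 for 5 members: Mir200a (6.31 against 3.87), Mir200b (6.19 against 4.11), Mir200c (4.96 against 2.99), Mir429 (6.93 against 5.05) and Mir141 (4.23 against 1.95), with interaction adjusted p by edgeR of 0.00104, 0.0027, 0.00242, 0.029 and 0.00463. With miRNA genes scaled and tested alone, Mir200a was the only 1 of these 5 still called (a difference of -1.25, adjusted p = 0.0128); Mir200c had an adjusted p of 0.0368 at -0.80, under the fold limit. Mir141 was at -1.10 (adjusted p = 0.0737), Mir200b at -0.90 (adjusted p = 0.0977) and Mir429 at -0.70 (adjusted p = 0.33).

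**Figure D1:**
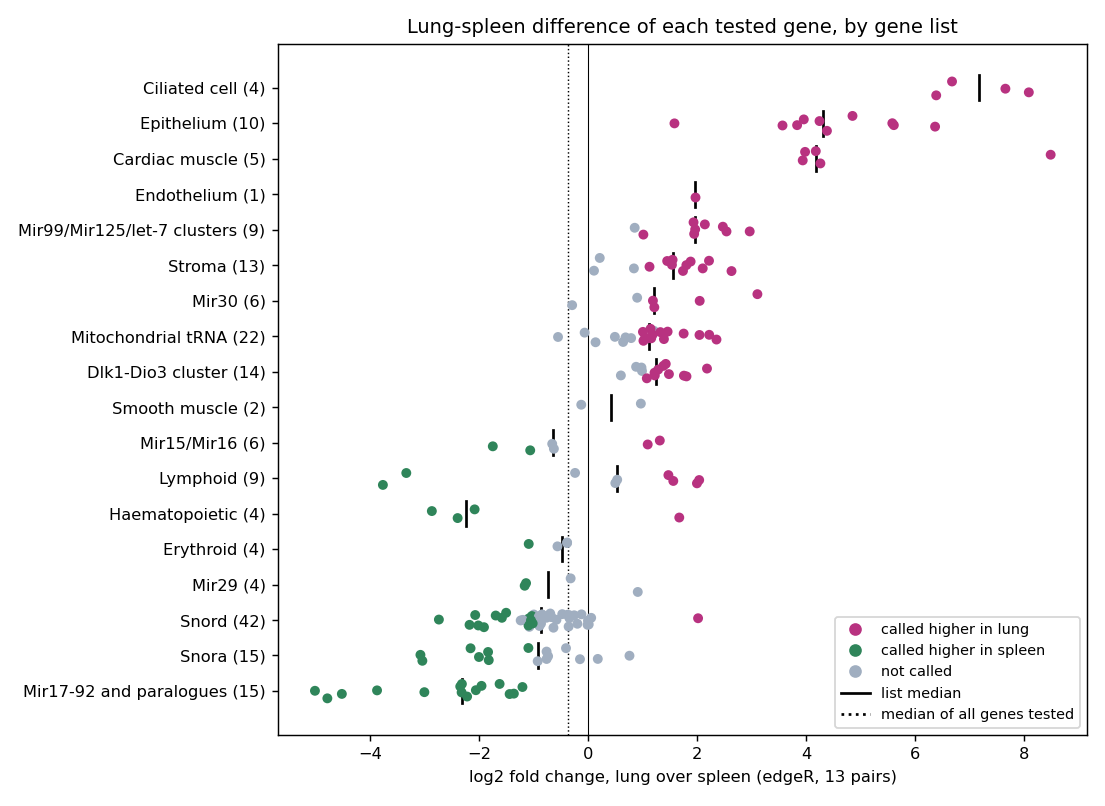
Each point is 1 tested gene, placed by its log2 fold change of lung over spleen (horizontal axis, edgeR, 13 pairs) in the row of its list, with the number tested in brackets; colour gives the call, the black bar the list median and the dotted line the median of all genes (-0.37). The ciliated, epithelial and cardiac muscle lists lie wholly to the right, the Mir17-92 list wholly to the left, and the lymphoid and haematopoietic lists lie on both sides.

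Outside these lists, Mir1298, Mir375, Mir92b and Mir31 were among the 12 genes with the largest rise in lung, of those with at least 50 CPM on average and 1 direction in all 13 pairs. Mir1298, in an intron of the serotonin receptor gene Htr2c (chromosome X, 147064905-147065002, plus strand), ran from 34.7 to 201 CPM in lung, with a median of 95.2. In spleen 2 counts were seen in all 14 libraries together against 14713 in lung, a ratio of 5014 with an exact 95% interval for counting error of 1388 to 41407. Within N541, brain was the only tissue with a higher median, at 231 raw CPM against 28.2 in lung. Mir375, known from endocrine cells of the islet and airway, ran from 328 to 668 CPM in lung (median 517) and from 0 to 5.37 CPM in spleen (median 0.593). The acinar genes of the pancreas list, Mir216a, Mir216b, Mir216c and Mir217, were too low to test, at most 0.208 raw CPM in a lung library and 0.946 in a spleen library. Within N541, pancreas had the highest median of Mir375 among the tissues, at 25313 raw CPM. Mir31 ran from 64.4 to 226 CPM in lung and from 2.62 to 10.1 CPM in spleen, a log2 fold change of 4.62 ± 0.24. Mir375 and Mir31, like Mir1298, did not overlap between the tissues.

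Mir92b (chromosome 3, 89227116-89227198, minus strand) carried the most abundant of these differences. It ran from 1975 to 5185 CPM in lung (median 3275) and from 10.6 to 26.5 CPM in spleen (median 15.9), a log2 fold change of 7.49 ± 0.25 (SE), adjusted p = 6.73e-14 by edgeR's test. The value was 7.49 in N467 and 7.42 in N541. Genes with the same seed went the other way: Mir92-1 (-1.37 ± 0.18), Mir92-2 (-2.35 ± 0.25), Mir25 (-1.21 ± 0.22), Mir32 (-1.28 ± 0.27) and Mir363 (-3.88 ± 0.31) were all called higher in spleen. The call of Mir25 was lost in N467 alone (-0.81), and that of Mir92-1 in the first index set alone (-0.63). A share within 1 seed family does not depend on the scaling between libraries. Mir92b made up 22.7 ± 5.40% (SD, n = 13) of the counts on these 6 genes in lung, from 14.3 to 36.0%. In spleen it made up 0.0620 ± 0.0154%, from 0.0418 to 0.0940%. Mir92-1 made up 87.6 ± 4.06% in spleen and 69.7 ± 6.13% in lung. The summed level of the 6 genes was still lower in lung in 13 of 13 pairs, at 14913 ± 5711 against 29197 ± 6627 CPM. Mature miR-92a-3p is the same from Mir92-1 and Mir92-2, so the division between those 2 copies is uncertain.

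Of 69 seeds shared by at least 2 tested miRNA genes, 39 had calls towards lung only, 14 towards spleen only, 13 had none and 3 had calls in both directions. Both arms of a hairpin were entered, so 1 gene can stand under several seeds. Some seeds are shared only by copies with 1 mature sequence, so these seeds are not that many independent families. RefSeq held a mature sequence for 287 of the 345 tested genes. Besides the Mir25/Mir92 seed, the seeds with calls in both directions were the Mir15/Mir16 and the Mir130/Mir301 seeds. Mir195a (1.31 ± 0.24), Mir497 (1.09 ± 0.24) and Mir322 (1.55 ± 0.23) were called higher in lung, while Mir15a (-1.07 ± 0.27) and Mir15b (-1.75 ± 0.27) were called higher in spleen. Mir195a took 10.7 to 29.3% of the counts on this seed in lung and 3.39 to 8.61% in spleen, and Mir497 took 1.40 to 2.25% against 0.513 to 0.832%. Mir16-1, the most abundant gene of the seed, was not called (-0.66 ± 0.23); its share ran from 40.5 to 43.2% in spleen and from 29 to 37.2% in lung. Mir15b lies in an intron of Smc4, a chromosome condensation gene, and Mir195a and Mir497 lie together on chromosome 11. Mir195a and Mir497 were called in N467 alone (1.78 and 1.54) and not in N541 alone (0.19 and -0.02), and both calls were lost with miRNA genes alone. The call of Mir15a was lost in N467 alone (-0.58), with DESeq2 size factors (-0.85) and without animal 2, 3, 4, 5, 11, 12 or 13 (-0.76 to -0.99). Mir130b took 8.51 to 30.9% of its seed's counts in spleen and 1.08 to 4.94% in lung, without overlap. Mir130a was called higher in lung at 1.29 ± 0.24 and Mir130b higher in spleen at -2.75 ± 0.28. In the Mir146 pair, Mir146b, called higher in lung (1.67 ± 0.25), took 21.1 to 53.5% of the counts on Mir146 (the gene of miR-146a) and Mir146b in lung and 9.38 to 19.1% in spleen, while Mir146 itself was not called (-0.24 ± 0.21).

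**Figure D2:**
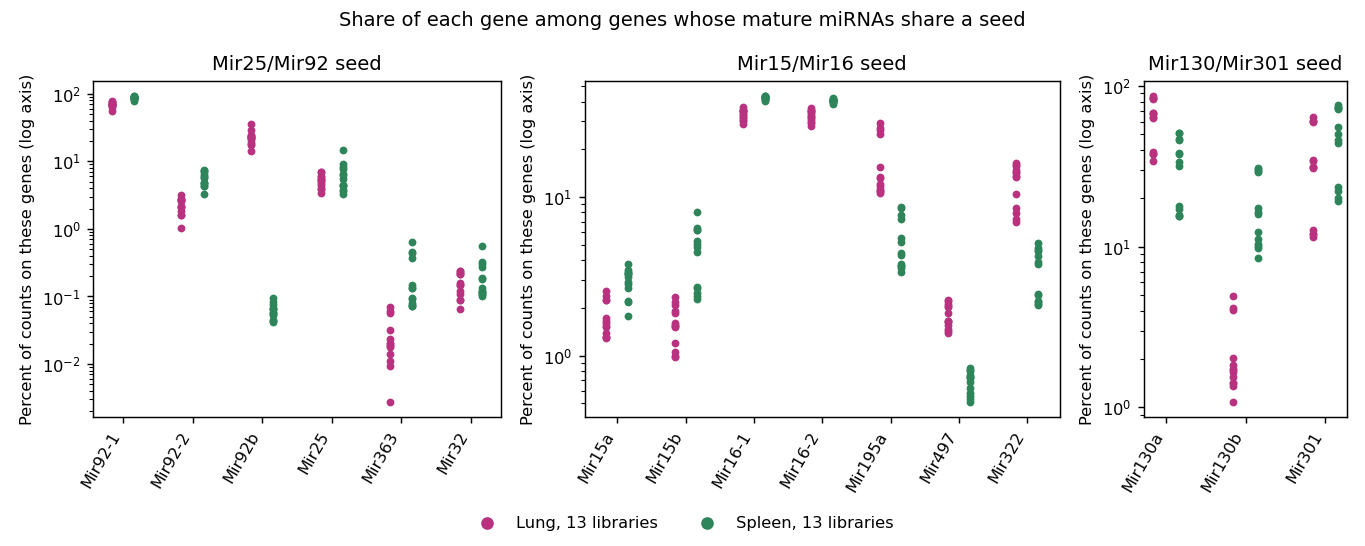
Each point is 1 library, lung in purple and spleen in green (13 each), and the vertical axis (log scale) gives the percent of counts that a gene takes among genes with the same seed. Mir92b sits at 14.3 to 36.0% in lung and below 0.1% in spleen; Mir195a, Mir497 and Mir322 are also higher in lung, and Mir130b is higher in spleen, each without overlap.

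Of the miRNAs of muscle, 5 of 5 tested were called higher in lung, with a median log2 fold change of 4.18. Mir1a-1 ran from 54.0 to 610 CPM in lung and from 3.19 to 18.3 CPM in spleen. Mir133a-2 ran from 50.9 to 699 CPM in lung and from 6.89 to 23.8 CPM in spleen. Mir208b, in an intron of the cardiac and slow muscle myosin gene Myh7, ran from 10.3 to 93.7 CPM in lung and did not exceed 0.255 CPM in spleen. Mir208a, in an intron of the cardiac myosin gene Myh6, did not pass the filter on low counts. It had 1590 counts in lung, with a count in all 13 libraries (0.545 to 16.4 raw CPM), and 0 in the 14 spleen libraries, at least 361-fold higher against a floor of 3 counts over the group. Mir499, also too low to test, had 56 counts in lung and 80 in spleen. Summed over the 10 listed genes, raw CPM was 178 to 1786 in lung and 28.9 to 96.2 in spleen. The levels varied over a wide range between lung libraries but stayed above every spleen library for all 5 tested. Which cells carried them was not tested.

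Endothelial and stromal miRNAs were higher in lung by smaller amounts. Mir126a, within the endothelial gene Egfl7, ran from 4706 to 52622 CPM in lung (median 10687) and from 1787 to 8580 CPM in spleen (median 4063), a log2 fold change of 1.96 ± 0.25. It was higher in lung in 13 of 13 pairs, and the tissues overlapped. Its difference was 3.12 in the first index set, 2.11 in the second and 1.09 in N541. Of 13 stromal genes, 10 were called higher in lung and none in spleen, with a median of 1.55. Mir351 (2.63 ± 0.21), Mir199b (2.22 ± 0.30) and Mir199a-2 (1.80 ± 0.25), of fibroblasts and mesenchyme, did not overlap between tissues. Mir24-1 (0.11 ± 0.29), Mir24-2 (0.21 ± 0.28) and Mir214 (0.84 ± 0.24) were not called. The median of the stromal list was 1.94 in N467 with 11 called, and 0.64 in N541 with 3 called; on unscaled totals 6 were called. Smooth muscle genes were not called: Mir143 was at 96176 ± 20081 CPM in lung and 51787 ± 21414 CPM in spleen (0.97 ± 0.23), and Mir145a was at 1298 ± 413 and 1450 ± 545 CPM (-0.13 ± 0.19). The median of both was 0.42 and turned to -0.27 on unscaled totals.

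Clusters that join Mir99 or Mir100, let-7 and Mir125, which hold back growth in mature tissue, were called higher in lung for 8 of 9 genes (median 1.96). Mir125a had the largest difference, running from 1655 to 15855 CPM in lung and from 185 to 1713 CPM in spleen, a log2 fold change of 2.96 ± 0.29. Mir99a (2.54 ± 0.28) and Mirlet7c-1 (2.47 ± 0.26) followed, and Mirlet7a-2 was not called (0.85 ± 0.24). Mir100 was called at 1.01 ± 0.27 over all pairs, but was at -0.33 in N541 alone, and its call was lost on unscaled totals (0.31), with miRNA genes alone (0.62) and without animal 1, 6, 7 or 8. The Mir30 family divided: Mir30a (3.10 ± 0.30), Mir30d (2.05 ± 0.20), Mir30c-1 and Mir30c-2 were called higher in lung, Mir30b (0.90 ± 0.28) and Mir30e (-0.30 ± 0.26) were not. The calls of both Mir30c genes were lost on unscaled totals, with miRNA genes alone and in N541 alone (0.23 and 0.27), where Mir30e was called higher in spleen (-1.21). Mir30e took 2.89 to 4.95% of the family's counts in lung and 17.5 to 33.8% in spleen. In the imprinted Dlk1-Dio3 region, 14 of 45 genes passed the filter and 10 were called higher in lung, led by Mir541 (2.18 ± 0.26). The 10 were 13 with DESeq2 size factors, 5 with miRNA genes alone, 3 on unscaled totals and 4 in N541 alone. Among miRNAs of Hox clusters, Mir10a was called higher in lung (1.76 ± 0.22), Mir10b was not called (-0.01 ± 0.31), and Mir196b was called higher in spleen at a low level (3.63 against 0.821 CPM).

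Several miRNAs of lymphocytes and other blood cells were higher in spleen. Mir150, a regulator of lymphocyte maturation through Myb, ran from 3341 to 14411 CPM in spleen (median 6088) and from 155 to 860 CPM in lung (median 402). Its log2 fold change was -3.77 ± 0.27 (SE), adjusted p = 2.32e-09 by edgeR's test. Mir155, induced in activated lymphocytes and macrophages and cut from Mir155hg, ran from 286 to 998 CPM in spleen and from 27.1 to 84.5 CPM in lung. Both were lower in lung in 13 of 13 pairs with no overlap. Mir142, found in all blood cell lineages, ran from 9553 to 25461 CPM in spleen (median 16149) and from 892 to 3838 CPM in lung (median 2197), -2.87 ± 0.26. Mir223, of granulocytes, was at -2.09 ± 0.20 without overlap, and Mir511, in an intron of the macrophage receptor gene Mrc1, was at -2.40 ± 0.27. Mir342, in an intron of Evl, ran from 1668 to 7860 CPM in spleen and from 140 to 923 CPM in lung, -3.27 ± 0.22.

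Of all tested miRNA genes, 37.7% were called higher in lung and 25.5% higher in spleen. The lymphoid list as a whole was not one-sided and lay near these shares: 2 of 9 were called higher in spleen, 4 higher in lung and 3 neither. Its median was 0.53 and turned to -0.16 on unscaled totals, where 2 were called higher in lung. With all genes scaled together, 4 were called higher in lung. The 4 were Mir181a-1, Mir181a-2, Mir181b-1 and Mir181b-2, known for roles in T cell development and also present in other tissues. Mir181a-1 ran from 4462 to 22815 CPM in lung and from 1259 to 9729 CPM in spleen, a log2 fold change of 2.0 ± 0.26, and was higher in lung in 13 of 13 pairs. None of the 4 was called in N541 alone, where Mir181a-1 was at 0.96 against 2.44 in N467. Of the haematopoietic list, Mir142, Mir223 and Mir511 were called higher in spleen and Mir146b higher in lung. Summed raw CPM of the haematopoietic list was 16592 to 38140 in spleen and 5099 to 16106 in lung. Most of the lung sum was Mir146b: median raw CPM in lung was 6290 for Mir146b, 2195 for Mir142 and 87.4 for Mir223. Of the erythroid genes, Mir451a was called higher in spleen (-1.09 ± 0.35, in 10 of 13 pairs), and Mir144 (-0.56 ± 0.30) and Mir486 (-0.39 ± 0.27) were not called. With 1 of 4 called higher in spleen, the erythroid list was also near the share over all tested miRNA genes. The number of the 4 erythroid genes called ran from 0 (DESeq2 size factors, N467 alone) to 4 (unscaled totals). Mir451a was at -0.57 in the first index set alone, where it was not called, and its call was lost without animal 2, 3, 4, 5, 7, 9, 11 or 12 (-0.77 to -0.99). Mir486 and Mir3107 overlap on opposite strands in Ank1 and their reads cannot be told apart.

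**Figure D3:**
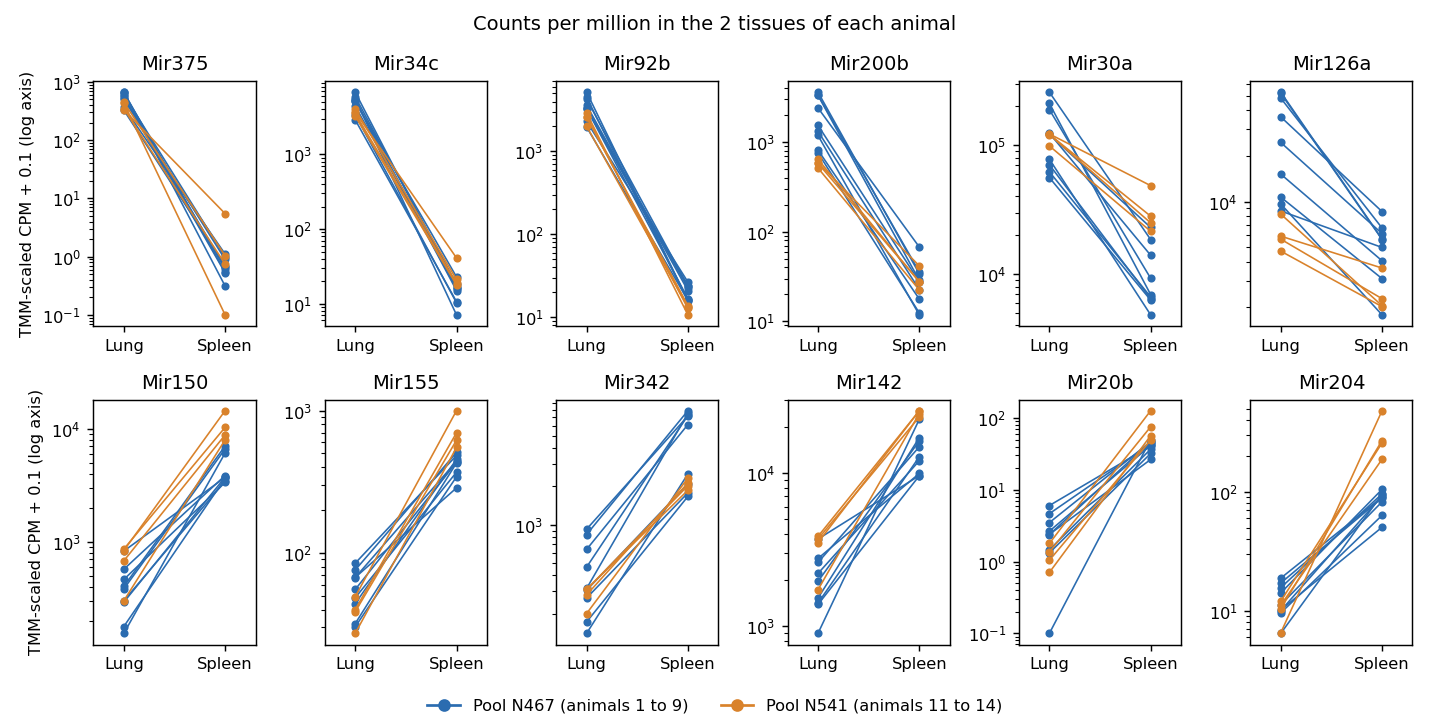
Lines join the lung and the spleen library of 1 animal (13 pairs), the vertical axis is TMM-scaled CPM plus 0.1 on a log scale, and colour gives the library pool. The upper 6 genes were higher in lung in each pair and the lower 6 higher in spleen in each pair, Mir126a and no other gene shown overlapping between tissues; the N467 spleens form separate upper and lower sets for Mir342.

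The Mir17-92 cluster and its relatives Mir106a-363 and Mir106b-25, which promote division and survival of progenitor cells, were called higher in spleen for 15 of 15 genes, with a median of -2.32. Under the size factors the median was -2.11 and under unscaled totals -3.01. Members of the X-linked cluster differed most: Mir106a (-5.02 ± 0.41), Mir20b (-4.79 ± 0.45), Mir18b (-4.52 ± 0.29) and Mir363 (-3.88 ± 0.31). Mir20b ran from 26.3 to 126 CPM in spleen (median 46.6) and from 0 to 5.93 CPM in lung (median 1.69). Their counterparts on chromosome 14 differed less and were more abundant: Mir17 (-2.22 ± 0.29), Mir20a (-2.06 ± 0.22) and Mir18 (-2.32 ± 0.23). Mir20a ran from 240 to 708 CPM in spleen and from 48.6 to 151 CPM in lung. Of the genes in Mcm7, Mir106b was at -1.63 ± 0.26, Mir93 at -1.44 ± 0.25 and Mir25 at -1.21 ± 0.22. The tissues did not overlap for 8 of the 15, and in N541 alone all 15 were called, in N467 alone 13. With DESeq2 size factors 14 were called, and Mir25 was not (-0.99); its call was also lost without animal 2 (-0.96), 3 (-0.98) or 11 (-0.93).

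Mir204 and Mir211, a pair with 1 seed that lie in introns of the ion channel genes Trpm3 and Trpm1, were both among the 12 largest rises in spleen under the same limits. Mir204 ran from 50.4 to 483 CPM in spleen (median 95.4) and from 6.36 to 18.7 CPM in lung (median 11.1), -3.39 ± 0.34. Mir211 ran from 14.0 to 257 CPM in spleen (median 63.7) and from 0.723 to 10.1 CPM in lung (median 3.36), -3.97 ± 0.34. Neither overlapped between tissues. Among the 11 tissues of N541, Mir211 had its highest median in spleen, at 124 raw CPM against 38.7 in brain, the next, while Mir204 was highest in brain (6919 raw CPM), with spleen at rank 4. Mir139 (-3.08 ± 0.29) and Snord17 (-2.74 ± 0.20), the only snoRNA among the 12, also lay wholly above lung in spleen. Mir19a, at -3.01 ± 0.27, was the only 1 of the 12 with overlap.

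The most abundant RNAs were partly shared. Mir10a took 16.6% of counts in lung and 7.90% in spleen, and Mir143 took 7.77 and 6.43%. Mir30a took 9.58% in lung, and Mir30d, Mir26a-1, Mir26a-2 and Mir126a were also among the first 10 there, all called higher in lung. Mir21a (4.44%), Mir92-1 (3.49%), Mir146 (2.18%) and Mir142 (2.11%) were among the first 10 in spleen only. Mir21a, a miRNA of inflamed and dividing cells, was called higher in spleen at -1.37 ± 0.26, but was not called in N467 alone (-0.90). Gm26202, a snoRNA in an intron of Rpl17, took 3.54% in lung and 7.99% in spleen and was not called (-0.42 ± 0.23).

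Tissues were ranked by median raw CPM within N541, with 2 to 4 libraries a tissue, because brain, heart, muscle, intestine and bone marrow of animals 1 to 10 are in a separate pool, N469, that holds no lung or spleen. Of the 88 miRNAs called higher in spleen, 48 had their highest median in spleen, 20 in brain and 5 in bone marrow. Of the 130 called higher in lung, 23 had their highest median in lung and 51 in brain. Over all 345 tested miRNAs, spleen was highest for 67 and lung for 25. A call towards 1 of the 2 tissues nearly excludes the other from the first rank, so the called tissue is favoured in advance. The numbers for brain and bone marrow over all 345 are not given here. Those counts are therefore not read as a trait of the called genes. The doubt over the libraries labelled testis, given above, applies to these ranks. Mir146b, Mir92b and Mir30d were among those highest in lung. Over all pools the spleen numbers were 38 in spleen, 14 in brain and 20 in bone marrow, and the lung numbers 23 in lung and 53 in brain.

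Over all tested miRNA genes, 37.7% were called higher in lung and 25.5% higher in spleen. The list for liver and gut had 2 of 5 called higher in lung, near that share. The neural list had 1 of 6 called higher in spleen. Mir215 was called higher in lung (2.98 ± 0.19, 4.84 to 20.9 against 0.340 to 2.72 CPM), and the liver miRNA Mir122 was called higher in lung (1.86 ± 0.70) at 8.36 CPM on average with wide spread. The call of Mir122 was lost without animal 1 (1.61) or 8 (1.66), on unscaled totals (1.14) and in N541 alone. Mir192 and both Mir194 genes were not called over all pairs. Of 6 tested neural genes, Mir219a-1 was called higher in spleen (-1.97 ± 0.24, without overlap) and 5 were not called.

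RNA classes were compared as percent of library counts, with an exact sign-flip permutation test over the 13 pairs (two-sided) and adjustment over 7 classes. miRNA took 73.2% of counts in lung and 66.2% in spleen (adjusted p = 0.338). snoRNA took 12.2 and 19%, lower in lung in 11 of 13 pairs (adjusted p = 0.0649). tRNA took 12.5 and 12.8%, with Lung 9 at 51.7% and Lung 7 at 34.5%. Small nuclear RNA (snRNA), the RNA of the splicing machinery, was at 0.0250 and 0.126% and lower in lung in 13 of 13 pairs (adjusted p = 0.00171). The pools gave different answers for snoRNA. In N467 the snoRNA share was 2.83 to 9.90% in lung and 11.3 to 24.0% in spleen, without overlap, and lower in lung in 9 of 9 pairs (adjusted p = 0.0137). In N541 it was 22 to 29.7% in lung and 10.9 to 34.2% in spleen. The difference between pools was 14.4 percentage points (adjusted p = 0.0196, exact permutation of 13 animals). Within N467 the difference was -9.95 points in the first index set and -11.7 in the second.

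**Figure D4:**
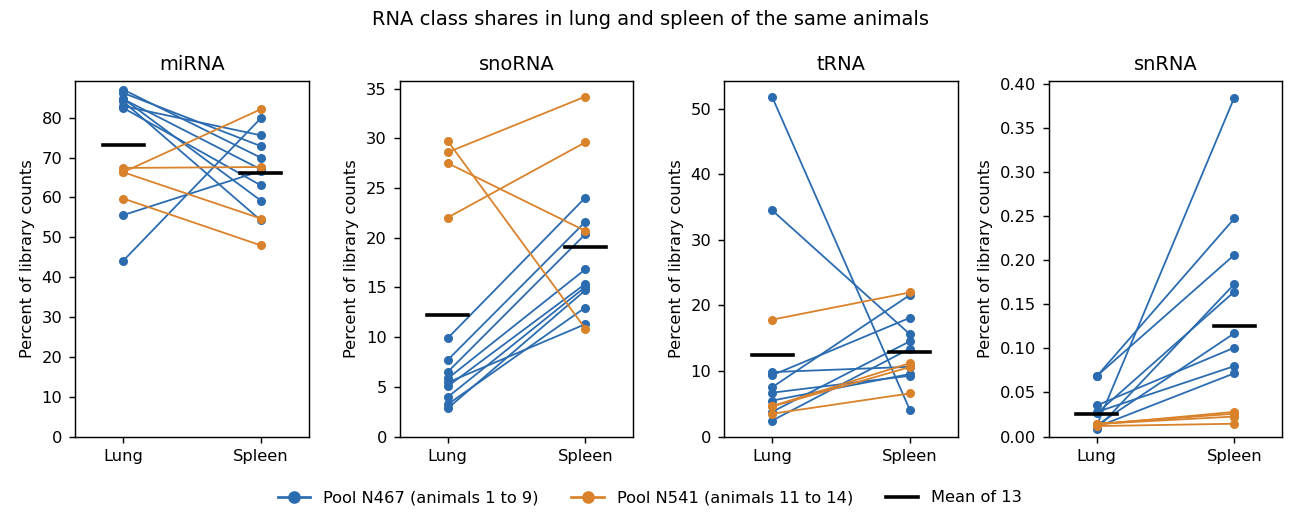
Percent of library counts on 4 RNA classes (vertical axes, each from 0), with a line joining lung and spleen of 1 animal, colour for the pool and a black bar for the mean of 13. snoRNA shares rise from lung to spleen in all 9 N467 pairs and in 2 of the 4 N541 pairs, snRNA shares rise in all 13, and 2 lung libraries stand out for tRNA.

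Of 135 snoRNA genes, 64 were called higher in spleen and 3 higher in lung, with a median log2 fold change of -0.98. That median was -1.34 in N467 and -0.40 in N541. Snord17, in an intron of Snx5, ran from 2380 to 4921 CPM in spleen (median 3205) and from 246 to 934 CPM in lung (median 476), with -2.56 in N467 and -3.22 in N541. Snord93 (-2.02 ± 0.22) and Snord53 (-2.07 ± 0.28) did not overlap either. Over all genes tested, 28.5% were called higher in spleen and 20.8% higher in lung. Among C/D box genes named Snord, which guide methylation, 13 of 42 were called higher in spleen, near the share over all genes. Of these 42, 1 was called higher in lung, Snord123 (2.02 ± 0.49, 160 to 1309 against 12.5 to 135 CPM). These counts join pools that differ: in N467 alone 31 were called higher in spleen and 1 in lung (median -1.36), and in N541 alone 15 were called higher in lung and 9 in spleen (median 0.56). Of the 42, 31 had a called dependence on the pool. The spleen count was 30 on unscaled totals and 8 with DESeq2 size factors. Among H/ACA genes named Snora, which guide pseudouridylation, 7 of 15 were called higher in spleen, led by Snora73a (-3.08 ± 0.31) and Snora74a (-3.04 ± 0.23); the count was 12 on unscaled totals and 6 with DESeq2 size factors. Of the Cajal body RNAs, 4 of 8 were called higher in spleen, 5 on unscaled totals and 2 with DESeq2 size factors. Terc, the RNA subunit of telomerase, was picked out after its values were seen: it ran from 6.32 to 22.3 CPM in spleen and from 0.403 to 3.58 CPM in lung, -3.93 ± 0.29, with -3.95 in N467 and -3.91 in N541.

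Mitochondrial tRNAs were called higher in lung for 14 of 22 genes, with a median of 1.12, and none was called higher in spleen. mt-Tv rose in 13 of 13 pairs (1.46 ± 0.22), from a mean of 1351 CPM in spleen to 4019 CPM in lung. mt-Tl1 had the lowest value (-0.55 ± 0.34). On unscaled totals 4 were called higher in lung and 1 in spleen (median 0.44), with DESeq2 size factors 15 in lung. In N467 alone 8 were called, and in N541 alone 13. The share of counts on the class was 1.76% in lung and 1.26% in spleen (adjusted p = 0.606 by the exact permutation test), higher in lung in 4 of 9 pairs of N467. Lung and spleen overlapped for all 22. The Y RNAs Rny1 (1.42 ± 0.23) and Rny3 (1.03 ± 0.23), which bind the Ro protein, were called higher in lung, but neither in N541 alone or on unscaled totals. Cytosolic tRNA rows, which carry only numbers in the table, had 55 of 256 called higher in spleen and 13 higher in lung. Both were below the shares over all genes tested, 28.5% in spleen and 20.8% in lung. The tRNA counts were 142 and 2 on unscaled totals and 33 and 16 with DESeq2 size factors. Without animals 7 and 9, whose lung libraries had the highest tRNA shares, 176 genes of all classes were called higher in lung and 213 higher in spleen.

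The difference between lung and spleen depended on the pool for 219 genes, by edgeR's test of the interaction with Benjamini-Hochberg adjustment: it was higher in N541 for 120 (14.8%) and lower for 99 (12.2%). By class, 55 snoRNA and 41 tRNA genes were higher in N541, against 3 and 0 lower. Of the genes classed as miRNA, 91 were lower and 6 higher, and Snord43, a snoRNA by name, was among the 6. For miRNA this direction rests on the scaling: with miRNA genes scaled and tested alone, 26 were higher and 4 lower, and on unscaled totals 26 genes of all classes were lower. The count of 99 was 14, 43, 33 and 52 without animals 11, 12, 13 and 14, the animals of N541. Of the 5 genes with the smallest p, Snord83b was the most abundant. It ran from 11676 to 17460 CPM in the 4 lung libraries of N541 and from 218 to 1663 CPM in their spleens. In N467 it ran from 166 to 348 CPM in lung and from 478 to 1268 CPM in spleen. The order of the tissues thus turned between pools, at log2 -1.98 in N467 and 4.06 in N541. Snord89, Gm25970, Snord87 and Snord90 turned in the same way, and so did Scarna2 (-1.03 and 2.75). Snord49a was lower in lung in N467 (-1.36) and at 0.11 in N541, and its level differed between pools in both tissues: it ran from 240 to 521 CPM in the lungs of N467 and from 74417 to 124220 CPM in those of N541, and from 539 to 1508 and from 28294 to 158850 CPM in the spleens.

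**Figure D5:**
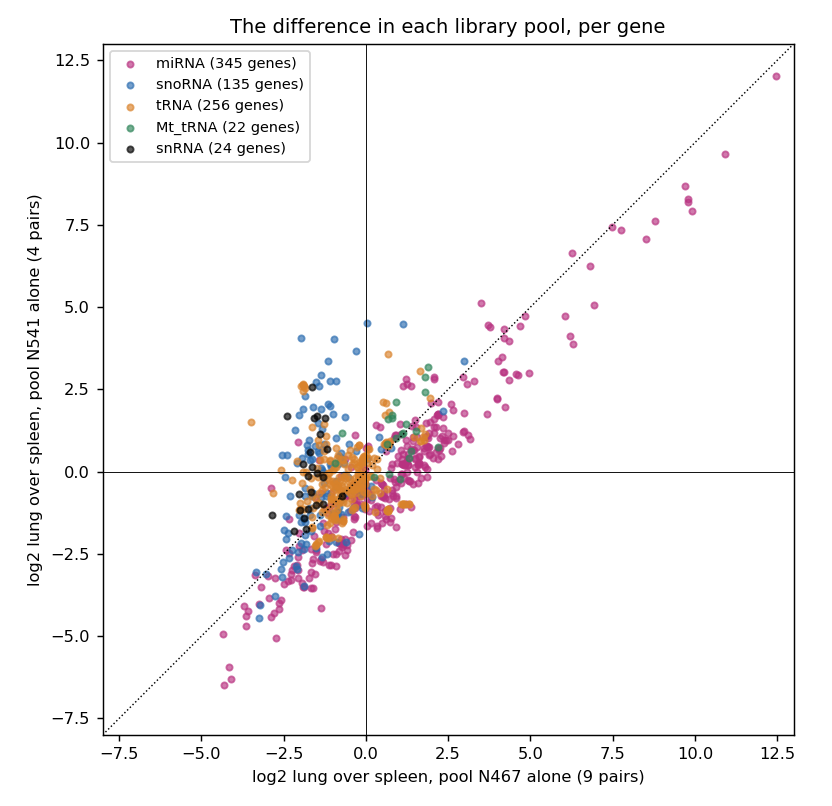
Each point is 1 gene, with the log2 fold change of lung over spleen in N467 alone (9 pairs, horizontal) and in N541 alone (4 pairs, vertical); colour gives the RNA class and the dotted line is equality. The 12 largest changes named in each direction were chosen for having the same direction in every pair. They kept their sign in both pools, but that choice largely fixed this in advance, so it is no test of agreement. Several lie off the line, such as Mir375 (9.90 in N467, 7.91 in N541) and Mir204 (-2.74 in N467, -5.07 in N541). The miRNAs lie on the whole below it under this scaling (with miRNA genes scaled alone, 26 were higher and 4 lower in N541). Many snoRNA and snRNA genes lie above it, and some change sign.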

How the data were processed

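Small RNA libraries of 11 tissues were deposited as 1 table of raw counts of reads per gene, which the authors made with STAR 2.5.1 and featureCounts on mm10 (GRCm38), per the submitters' processing notes. Whether reads were counted by strand, and how reads that match several genes were treated, is not given in the sources used here, so near-identical copies and overlapping genes are uncertain. The small RNA libraries were size-selected before single-read sequencing, per the labels.

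The 27 lung and spleen columns of the 6114-gene table were used, all with a sample of their own. Genes were kept by filterByExpr (minimum count 10), scaled by TMM and tested with edgeR 4.0.16 (R 4.3.3) by quasi-likelihood with animal as a block over 26 libraries of 13 animals. The standard error is the log2 fold change divided by the square root of F. Dependence on the pool was tested as an interaction. On simulated data, edgeR recovered 97.9% of tissue differences of log2 2 and 45.9% of dependences on the pool of log2 2. Class shares were tested by exact permutation in scipy 1.17.1. Without molecular identifiers, the interval and the floor given speak to counting error alone. Positions and hosts came from GENCODE M21 and mature sequences from RefSeq.

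Same-numbered libraries come from the same animal. The correlation of their deviations from the tissue means ran from -0.418 to 0.483 (median 0.334). It was over 0.1 in 8 of 13 pairs, and its median was -0.0773 for different animals of the same pool. Only 2 of 13 lung libraries matched best the spleen of their own animal. Some miRNAs differed between the index sets, such as Mir342 in spleen and the share of Mir301 in lung. Libraries of the same set can therefore correlate whatever the animal. For this reason the correlation cannot decide whether the pairing by number is right.

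Alternatives were DESeq2 1.42.0, limma 3.58.1 (voom), other scalings, filters and fold limits, no block, all tissues, each pool or index set alone, and each animal left out. The index sets, leaving out animals 7 and 9 together, the mean of the pools, the tissue ranks within N541 and miRNA alone for the dependence on the pool were chosen after seeing the data. The text names the 12 largest changes in each direction among called genes with a mean of at least 50 CPM and 1 direction in 13 pairs, the 10 genes with the largest share of counts in each tissue, the 5 smallest interaction p and the members of 25 lists; Terc was added after its values were seen. The members and lists were chosen with earlier results of these data known.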

Additional observations from a re-analysis of the deposited data

Results flagged for a closer look

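The difference between lung and spleen was itself different in the 2 pools for the following results, by an interaction test over genes (edgeR) or an exact permutation of animals between pools (class shares). Sex, animals, pool and indexes go together in these pools, and their parts cannot be told apart. The snoRNA share, lung minus spleen, was 14.4 percentage points higher in N541 than in N467, and the snRNA share 0.132 points higher. By gene, the log2 fold change was higher in N541 for 120 genes and lower for 99.

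The 5 with the smallest p were snoRNAs: the value in N541 minus that in N467 was 6.34 for Snord83b, 5.30 for Gm25970, 4.81 for Snord89, 4.31 for Snord87 and 3.97 for Snord90. It was 1.76 for Snord49a, which is named for its share of counts. These 6 were called under each of the 3 other scalings and tools run on all genes (DESeq2 size factors, unscaled totals and the DESeq2 Wald test). In lung, Gm25970 ran from 7.52 to 20.2 CPM in N467 and from 276 to 427 CPM in N541, while in spleen it ran from 20.5 to 48.8 and from 12.5 to 28.4 CPM.

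Among miRNAs that were higher in lung the same quantity was -2.15 for Mir200a, -1.80 for Mir200b, -1.69 for Mir200c, -1.62 for Mir30a, -1.61 for Mir429, -1.18 for Mir10a and -1.13 for Mir34c. Among those higher in spleen it was -2.04 for Mir204, -1.94 for Mir20b, -1.33 for Mir21a and -1.25 for Mir155. With miRNA genes scaled and tested alone, Mir200a (-1.25) and Mir204 (-1.16) were still called and the other 9 were not, with Mir34c at -0.24 and Mir10a at -0.27.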

How the results depend on the processing

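Counts of genes called higher in lung and in spleen (169 and 232) moved by over 1.5 times on unscaled library totals (92 and 406), without the filter (256 and 384), with a minimum log2 fold change of 2 (69 and 73), in the fit of all 11 tissues (267 in lung) and with the stricter filter (124 in spleen). With miRNA genes alone, 100 and 101 of 344 were called, against 130 and 88 of 345 with all genes. Leaving out 1 animal gave 163 to 209 and 151 to 237; the lowest spleen counts were 151 without animal 3 and 152 without animal 5. Without the replicate block, 178 and 241 genes of 822 were called, and with the index set in place of the animal 175 and 238. In the check of pairing, 2 of 13 lung libraries matched best the spleen of their own animal. That check cannot separate the animal from the index set.

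The counts of genes that depend on the pool (120 and 99) were 76 higher with the stricter filter, 26 higher and 4 lower with miRNA alone, 26 lower on unscaled totals and 157 lower with DESeq2. Leaving out 1 animal gave 80 to 121 higher and 14 to 128 lower, with 14, 43, 33 and 52 lower without animals 11, 12, 13 and 14, so the second count rests on the 4 animals of N541.

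The difference in snoRNA share (points) was -11.31 in N467, -9.951 and -11.75 in its index sets and 3.125 in N541, and -9.01 to -6.26 leaving out 1 animal, past the threshold without animal 11. For tRNA it was 1.627 in N467, 7.281 in the second index set and -4.4 to 0.7434 leaving out 1 animal, above 0 without animal 4, 5, 6, 8, 12 or 13. It was -0.003073 and -0.01717 for misc_RNA in N467 and its second set, -0.009172 for snRNA in N541, 14.36 for miRNA in the first set, -0.3091 for scaRNA in the second set and, for scaRNA leaving out 1 animal, -0.1679 (without animal 5, past the threshold) to -0.09626 (without animal 9). With 4 pairs the smallest p is 0.125, so N541 alone cannot pass.

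Among genes called over all pairs or in the alternative, those with the opposite sign to the value over all pairs were Snord83b (2.363 with all tissues, 1.117 as a mean of pools, 4.057 in N541), Snord89 (-1.15 in N467, -1.195 in its second index set) and, in N541 alone, Snord87 (2.613), Scarna2 (2.754), mt-Ti (1.168), Snora57 (0.8189), Mir27a (-0.1864), Mir100 (-0.3329), Mir497 (-0.02036), Mir192 (-1.209), Mir9-1 (-1.398) and Mir9-2 (-1.15). Sign changes of genes called in neither, such as Mir214 (0.84 and -0.27 in N541), are not listed. The cause was not tested. Depth limits genes such as Mir1298 and Mir208a, with 2 and 0 counts in spleen.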
